A study of Rattus norvegicus with 12 samples.

Results

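The genes examined were 10 that make bile acids or control their synthesis in the liver: the hydroxylases Cyp7a1, Cyp7b1, Cyp8b1, Cyp27a1 and Cyp39a1, the side-chain and conjugation enzymes Amacr, Slc27a5 and Baat, and the regulators Nr1h4, which encodes the bile acid receptor FXR, and Nr0b2, which encodes the repressor SHP. They were taken from the RPKM table (read counts scaled to transcript length and to mapped reads) by gene name, and all 10 were found among its 24355 gene names. They hold 13 of the 34391 transcript rows, since Cyp39a1, Nr1h4 and Amacr have more than one, and the row with the highest mean over the 12 livers stands for its gene. The livers came from female rats of iP10a, an inbred line bred to prefer alcohol. The 6 EtOH animals had 23 weeks of free choice between bottles of 10, 20 and 30% ethanol, with water and food always present, and the 6 controls drank water. All were 38 weeks old apart from animal 6 of the EtOH group, which was 39 weeks old. One inbred line and one sex were used, so the animals stand for that line. Poly(A) RNA of each liver was sequenced as 1 library per animal in 101-nucleotide paired-end reads.

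Bile acids are made from cholesterol in hepatocytes, and their synthesis is the main way in which the body breaks cholesterol down. The classical pathway starts with CYP7A1, its rate-limiting enzyme, and CYP8B1 then decides how much of the product becomes cholic acid. The alternative pathway starts with CYP27A1 and passes through CYP7B1. When bile acids return to the liver they activate FXR, which raises SHP, and SHP holds down transcription of Cyp7a1 and Cyp8b1 by blocking the nuclear receptors LRH-1 (gene Nr5a2) and HNF4A.

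Cyp7a1, Cyp7b1 and Nr1h4 had no entry among the promoters read and were not searched. The promoters of the other 7 of the 10 genes, taken as the 250 bases before the start site in RefSeq's GRCr8 annotation, were searched on both strands for CAAGGNC, the core of the motif bound by LRH-1. It was found in 4 of the 7, and in 15.8% of all 33469 promoters of that length. The motif was chosen after these promoters were read, so setting one share against the other is no test of an excess. Cyp8b1 held 2 matches directly next to each other, beginning 89 and 82 bases before the start. Nr0b2 held 1 match, 199 bases before the start. Cyp27a1 and Amacr held 1 each, 235 and 242 bases before the start. Baat, Slc27a5 and Cyp39a1 held none in this window. The sequences of Cyp8b1 and Nr0b2 are shown because SHP and LRH-1 meet on these genes in textbook accounts, and that of Cyp39a1 because it was the member that passed the test below. They run 5′ to 3′ on the strand of the gene, and capitals mark the motif. A match is a description of the letters and not evidence that the site is bound. Cyp8b1 lies on the minus strand, chr8:130457593-130457842, Nr0b2 on the plus strand, chr5:151062910-151063159, and Cyp39a1 on the minus strand, chr9:24804061-24804310.
Cyp8b1: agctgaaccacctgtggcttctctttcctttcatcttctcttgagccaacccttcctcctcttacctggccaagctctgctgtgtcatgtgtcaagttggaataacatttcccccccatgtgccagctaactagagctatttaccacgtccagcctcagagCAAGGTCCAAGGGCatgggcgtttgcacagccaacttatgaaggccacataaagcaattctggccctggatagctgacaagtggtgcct
Nr0b2: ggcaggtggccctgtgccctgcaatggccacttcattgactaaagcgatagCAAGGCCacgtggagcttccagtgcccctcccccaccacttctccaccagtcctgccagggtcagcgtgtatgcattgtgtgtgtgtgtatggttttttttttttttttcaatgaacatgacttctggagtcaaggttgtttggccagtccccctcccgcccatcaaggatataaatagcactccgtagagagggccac
Cyp39a1: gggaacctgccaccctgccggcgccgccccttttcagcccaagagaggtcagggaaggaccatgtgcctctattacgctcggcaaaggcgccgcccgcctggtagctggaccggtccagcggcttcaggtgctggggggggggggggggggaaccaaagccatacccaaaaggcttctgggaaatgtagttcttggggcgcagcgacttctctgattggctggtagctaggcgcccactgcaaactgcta

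The libraries held between 2610238 and 6030028 reads assigned to listed transcripts, recovered from the steps between RPKM values. The EtOH libraries were deeper, with 4640668 ± 826861 reads against 3384322 ± 593155 (SD over 6 livers a group, two-sided, p = 0.0108 by exact permutation). The part of depth in the results below was not tested. Hepatocyte markers were abundant in every liver, with summed RPKM of 84007 to 111679 in controls and 92297 to 118391 in EtOH animals over the 7 found, and 1 of them, Cps1, was called higher. Most of each sum was Alb, which averaged 70352 and 79085. Quantile normalization gave Alb the same value in every liver, and likewise Tf, so the test could call neither. Cholangiocyte markers summed to 4.44 to 8.38 in controls and 4.07 to 7.94 in EtOH animals, and 0 of 5 were called. Of the markers of other liver cells, 2 of 3 for Kupffer cells (Clec4f and Cd163), 1 of 5 for stellate cells (Col3a1) and 0 of 2 for endothelial cells were called, all higher in EtOH animals. The share called was 2.42% over all transcripts tested and 4.47% over those averaging 1 RPKM or more. Of the marker names listed, 3 of 6 for Kupffer cells and 2 of 4 for endothelial cells were not found. Likewise missing were 1 of 8 for hepatocytes and 2 of 7 for cholangiocytes. The Kupffer cell sums ran from 66.9 to 104 in controls and from 91.1 to 112 in EtOH animals, the stellate cell sums from 20.9 to 28.5 and from 26.1 to 44.3, and the endothelial cell sums from 21.0 to 27.1 and from 22.9 to 33.1. In bulk liver, more cells of a type and more RNA per cell cannot be told apart.

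The question was whether ethanol drinking moved the transcripts of this pathway. Of the 10 genes, 1 was called at an adjusted p below 0.05, Cyp39a1, which was higher in EtOH animals. Over all 21718 transcripts above 0 in at least 1 liver the same test called 2.42%, 1.13% higher and 1.29% lower, and 4.47% of those whose RPKM averaged 1 or more over the 12 livers. At an unadjusted p below 0.05 the same 1 of 10 passed, against 15.5% of all transcripts. On RPKM as deposited the groups did not overlap in 0 of the 10, against 3.1% of all. The median log2 fold change of the 10 was 0.044, against 0.0002 for all transcripts tested. The test was limma on quantile-normalized log2(RPKM + 0.5), with Benjamini-Hochberg adjustment over all 21718. Fold changes are EtOH against control on that scale, which understates the change of low genes. Levels are RPKM as deposited.

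**Figure D1:**
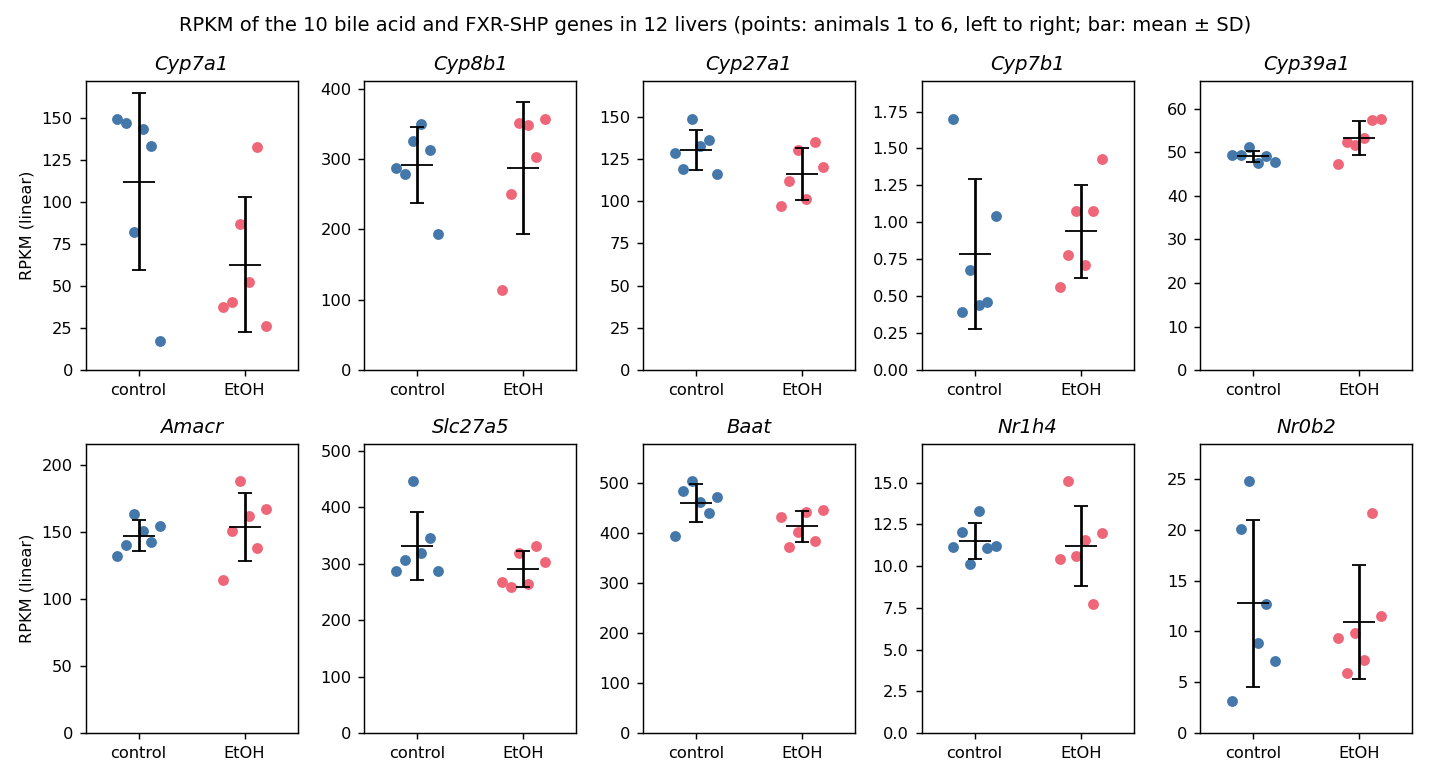
RPKM on a linear axis from 0 for each of the 10 genes, 1 panel per gene, in the 6 control livers (blue) and 6 EtOH livers (red), with the group mean and SD as bars and animals 1 to 6 from left to right. Cyp7a1 and Nr0b2 spread widely within both groups, from 17.4 to 149.7 and from 3.09 to 24.8, while Cyp39a1 stayed between 47.3 and 57.7.

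The classical pathway showed no called change in its first enzyme. Cyp7a1 (chr5:19707251-19716868 in the authors' coordinates, which come with no build named in the sources read) ranged in controls from 17.4 to 149.7 RPKM with a median of 138.6, and in EtOH animals from 26.5 to 132.8 with a median of 46.6. Of the controls, 5 lay at 82.2 or above and animal 6 lay at 17.4, the lowest value of all livers. Of the EtOH animals, 4 lay at 52.4 or below, while animals 3 and 5 lay at 87.1 and 132.8, so the groups overlapped. The means were 112 ± 52.8 in controls and 62.9 ± 40.1 in EtOH animals (SD, n = 6 each). The log2 fold change was -0.61 with a standard error of 0.53, and its 95% interval ran from -1.77 to 0.54 (limma, adjusted p = 0.649), or 0.292 to 1.46 times the control level. Without animal 6 of the controls it was -1.07, also not called (adjusted p = 0.172), and over all livers left out in turn it ran from -1.07 to -0.40. The spread of Cyp7a1 among animals of a group was larger than that of 94.4% of the transcripts averaging 1 RPKM or more. Between 285 and 2275 reads per liver fell on the gene.

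Cyp8b1 (chr8:127018908-127020878), the sterol 12-alpha-hydroxylase, was among the more abundant of the 10 and was nearly level between groups. It ranged from 193.8 to 349.3 RPKM in controls, with a median of 300.2, and from 113.2 to 357.2 in EtOH animals, with a median of 325.7. The lowest liver of each group was animal 6 of the controls, also lowest in Cyp7a1, and animal 1 of the EtOH group. The means were 291 ± 54.2 and 287 ± 94.4 (SD, n = 6 each). The log2 fold change was 0.013 ± 0.24 (SE, limma adjusted p = 0.986), with an interval from -0.51 to 0.54, and its sign turned under other scalings.

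The first enzyme of the alternative pathway was held more tightly. Cyp27a1 (chr9:74039087-74068647), the mitochondrial sterol 27-hydroxylase, lay between 116.1 and 148.8 RPKM in controls and between 97.1 and 135.0 in EtOH animals, with means of 130 ± 11.9 and 116 ± 15.4 (SD, n = 6 each). After normalization the log2 fold change was -0.012 with an interval from -0.18 to 0.15 (limma, adjusted p = 0.952). Without normalization between livers it was -0.17, also not called.

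Cyp7b1 (chr2:103102679-103271273), the oxysterol 7-alpha-hydroxylase that follows CYP27A1, was the lowest of the 10. It ranged from 0.391 to 1.70 RPKM in controls and from 0.564 to 1.43 in EtOH animals, on 4 to 19 reads per liver. The means were 0.786 ± 0.509 and 0.941 ± 0.315 (SD, n = 6 each). The log2 fold change of 0.17 had an interval from -0.37 to 0.72 (limma, adjusted p = 0.763).

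Cyp39a1 (chr9:12926125-13002576), which encodes the 7-alpha-hydroxylase that prefers 24-hydroxycholesterol, rose by a small amount. The controls lay between 47.6 and 51.1 RPKM with a median of 49.2, and the EtOH animals between 47.3 and 57.7 with a median of 52.7. On this scale the groups overlapped, because animal 1 of the EtOH group was the lowest liver of all, and the other 5 EtOH animals lay above every control. On the quantile-normalized log2 scale all 6 EtOH animals, at 5.69 to 5.91, lay above all 6 controls, at 5.46 to 5.64, a separation seen in 2.59% of all transcripts tested. The means were 49.1 ± 1.27 and 53.2 ± 3.90 RPKM (SD, n = 6 each). The log2 fold change was 0.28 ± 0.046 (SE), with an interval from 0.18 to 0.38 (limma, adjusted p = 0.0125), and the call held with each liver left out in turn (adjusted p from 0.0055 to 0.0337). The gene varied less among animals of a group than nearly all others: 0.929% of transcripts averaging 1 RPKM or more had a smaller spread. The call depended on the scaling between livers. The log2 fold change was 0.20 with median-ratio scaling (adjusted p = 0.0528), 0.21 with limma voom on the recovered reads (adjusted p = 0.0834) and 0.11 with no normalization between livers (adjusted p = 0.30), all in the same direction.

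**Figure D2:**
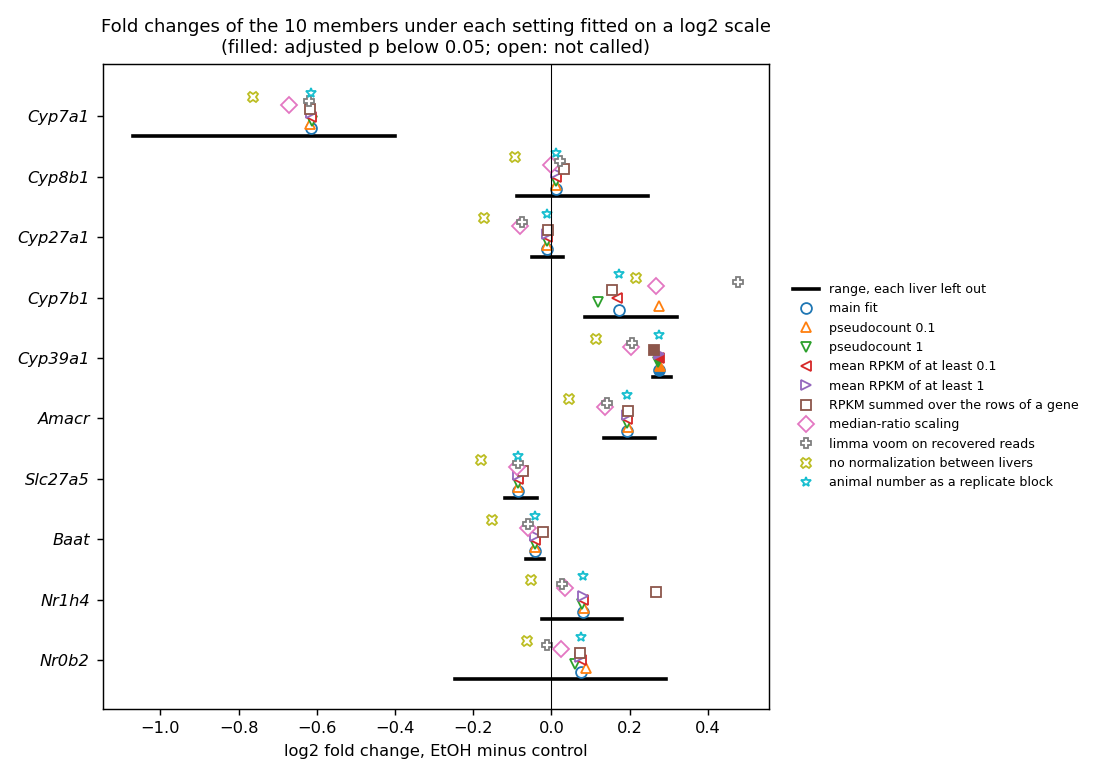
Log2 fold change, EtOH minus control, of each of the 10 genes under the main fit and each alternative fitted on a log2 scale (symbols; filled where the adjusted p is below 0.05), with the range over the 12 fits that leave out a liver each as a black line. Filled symbols occur for Cyp39a1 only, whose values run from 0.11 to 0.31, and the symbols of Cyp8b1, Nr1h4 and Nr0b2 lie on both sides of 0.

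The 3 enzymes that finish and conjugate the bile acid were abundant, and none was called. Amacr (chr2:60332287-60344324), the racemase that prepares the side chain for shortening, lay between 131.8 and 163.6 RPKM in controls and between 114.2 and 187.6 in EtOH animals, with means of 147 ± 11.3 and 153 ± 25.4 (SD, n = 6 each). Its log2 fold change was 0.19, with an interval from -0.0069 to 0.40 (limma, adjusted p = 0.345). Slc27a5 (chr1:72924607-72935215), the bile acid-CoA ligase, lay between 286.4 and 446.0 in controls and between 258.2 and 330.9 in EtOH animals. Its means were 332 ± 60.1 and 291 ± 31.4 and its log2 fold change -0.086, with an interval from -0.25 to 0.07 (limma, adjusted p = 0.649). The highest value was that of control animal 3. Baat (chr5:66245629-66254762), which joins bile acids to glycine or taurine, was the most abundant of the 10. It lay between 394.6 and 502.9 RPKM in controls and between 372.7 and 445.7 in EtOH animals, with means of 459 ± 38.0 and 413 ± 30.9 (SD, n = 6 each). Its log2 fold change was -0.042, with an interval from -0.16 to 0.07 (limma, adjusted p = 0.727), or 0.896 to 1.05 times the control level.

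Neither regulator was called. Nr0b2 (chr5:151524685-151528000) ranged from 3.09 to 24.8 RPKM in controls with a median of 10.8, and from 5.94 to 21.7 in EtOH animals with a median of 9.58. The highest livers were control animals 3 and 2 and EtOH animal 5, at 24.8, 20.1 and 21.7, and the lowest was control animal 1. The means were 12.8 ± 8.23 and 10.9 ± 5.62 (SD, n = 6 each). The log2 fold change was 0.075 ± 0.43 (SE), with an interval from -0.86 to 1.01 (limma, adjusted p = 0.949). The level of this small transcript rested on 10 to 119 reads per liver, and its spread within groups was larger than that of 91.2% of transcripts averaging 1 RPKM or more.

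Nr1h4 has 2 rows that overlap on chr7, one from 26189759 to 26307061 and one from 26229300 to 26307061, and reads from the shared part could be assigned to either. The main row lay between 10.1 and 13.3 RPKM in controls and between 7.72 and 15.1 in EtOH animals, with means of 11.5 ± 1.08 and 11.2 ± 2.40 (SD, n = 6 each) and a log2 fold change of 0.081 (interval -0.22 to 0.38, limma adjusted p = 0.806). The second row had means of 9.99 ± 2.96 and 11.9 ± 2.52 and a log2 fold change of 0.39 (limma, adjusted p = 0.412). Among the EtOH animals, the liver highest in the first row was lowest in the second (animal 2, at 15.1 and 7.47), and the liver lowest in the first was highest in the second (animal 5, at 7.72 and 14.3). Summed over both rows, an alternative added after the data were seen, the gene lay between 17.8 and 24.4 in controls and between 21.4 and 25.3 in EtOH animals. Its log2 fold change was then 0.27 ± 0.087 (SE), with an interval from 0.08 to 0.45 that was not past the threshold after adjustment (limma, adjusted p = 0.0873). The second row of Cyp39a1 held at most 8 reads in any liver. That of Amacr was above 0 in 1 liver only, where it was set to 1 read.

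The 10 genes covered a wide span of levels per transcript length. Baat averaged 436 RPKM over the 12 livers, followed by Slc27a5 at 311, Cyp8b1 at 289, Amacr at 150.3, Cyp27a1 at 123, Cyp7a1 at 87.6, Cyp39a1 at 51.1, Nr0b2 at 11.8, Nr1h4 at 11.4 and Cyp7b1 at 0.864. Only 2 pairs of neighbours in this order had ranges that did not meet, Cyp39a1 above Nr0b2 and Nr1h4 above Cyp7b1. Nr0b2 was above the main row of Nr1h4 in 4 of 12 livers, and above the sum of its rows in 2 of 12, which turns the order of that pair. Slc27a5 was above Cyp8b1 in 7 of 12 and Cyp7a1 above Cyp39a1 in 7 of 12, so the order within these pairs differed from animal to animal.

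The log2 ratios of 3 pairs of genes were compared within each liver, on RPKM as deposited plus 0.5. The log2 ratio of Cyp8b1 to Cyp7a1 was 1.63 ± 0.97 in controls and 2.30 ± 0.91 in EtOH animals (SD, n = 6 each), a difference of 0.67 (two-sided exact permutation test, p = 0.255, adjusted p = 0.383). It was 1.03 without control animal 6 and 0.39 without EtOH animal 6, neither past the threshold (exact permutation, adjusted p = 0.0747 and 0.708). The log2 ratio of Cyp7a1 to Cyp7b1, the hydroxylases of the classical and the alternative pathway, was 6.25 ± 1.45 and 5.27 ± 0.87, a difference of -0.98 (two-sided exact permutation test, p = 0.186, adjusted p = 0.383). The result turned on control animal 6, which had a ratio of 3.53, against 6.09 to 7.37 in the other 5 controls, and without it the difference was -1.52 (exact permutation test, adjusted p = 0.039). The other 11 comparisons without a liver did not pass (exact permutation test, adjusted p up to 0.708). Cyp7b1, the lower part of this ratio, rested on 4 to 19 reads per liver. The log2 ratio of Nr0b2 to Nr1h4 was -0.12 ± 1.06 and -0.13 ± 0.90 (exact permutation, p = 0.987), from the main row of Nr1h4. With both rows of Nr1h4 summed it was -0.99 ± 1.13 and -1.17 ± 0.65, a difference of -0.17 (exact permutation, p = 0.753), and EtOH animal 5, highest of its group at 1.43 with the main row, was at -0.023. On quantile-normalized values the differences of the 3 ratios were 0.63, -0.79 and -0.0061 (exact permutation, adjusted p = 0.416, 0.416 and 0.989). These 2 alternatives were added after the data were seen. With 6 livers against 6, no such test can give a p below 0.00216.

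Whether the livers with more of the repressor's transcript had less of its targets' was examined over the 12 livers on the quantile-normalized log2 scale, in 12 relations. Nr0b2 and Cyp7a1 had r = 0.15 and rho = 0.14 (permutation test, p = 0.637 and p = 0.667, adjusted p = 0.999 and 0.952), and r was 0.43 without the 2 livers farthest from the median of Nr0b2. Within groups r was -0.003 in controls and 0.59 in EtOH animals (n = 6 each, exact permutation test, p = 0.999 and p = 0.217). EtOH animal 5 was the highest of its group in both genes. Nr0b2 and Cyp8b1 had r = 0.06 and rho = 0.14 (permutation test, p = 0.844 and p = 0.66, adjusted p = 0.999 and 0.952), and r = 0.09 without the 2 farthest livers.

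Cyp7a1 and Cyp8b1 had r = 0.41 and rho = 0.25 over the 12 livers (permutation test, p = 0.189 and p = 0.438, adjusted p = 0.868 and 0.952), and r = 0.50 without the 2 livers farthest from the median of Cyp7a1. Within the controls r was 0.90 and rho 0.60 (n = 6, exact permutation test, p = 0.0514 and p = 0.242, adjusted p = 0.617 and 0.952), with control animal 6 low in both. Within the EtOH animals r was 0.26 (n = 6, exact permutation test, p = 0.617). Cyp7a1 and Cyp7b1 had r = -0.26 and rho = -0.23 (permutation test, p = 0.419 and p = 0.473, adjusted p = 0.999 and 0.952), and r = 0.17 without the 2 farthest livers. None of the 12 relations passed the threshold, raw or adjusted.

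**Figure D3:**
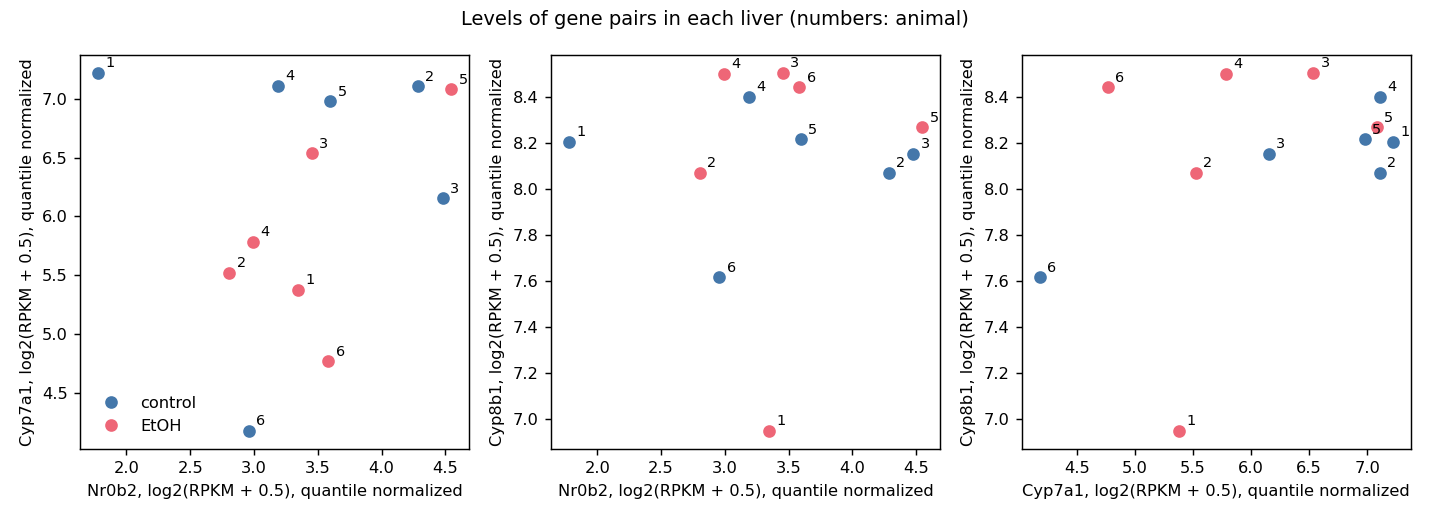
Quantile-normalized log2(RPKM + 0.5) of Nr0b2 against Cyp7a1, Nr0b2 against Cyp8b1 and Cyp7a1 against Cyp8b1, each point 1 liver numbered by animal, controls in blue and EtOH animals in red. Control animal 6 is the lowest liver in Cyp7a1 and EtOH animal 1 the lowest in Cyp8b1, and the pooled r of the 3 pairs is 0.15, 0.06 and 0.41.

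The transcripts that followed these genes most closely from animal to animal were sought among 10124 averaging 1 RPKM or more and above 0 in all livers, by the correlation over 12 livers of deviations from the group means. For Cyp7a1 they were D4A5B4_RAT (r = 0.883), Pus7 (0.879) and Masp1 (0.879), for Cyp8b1 Fdx1l (0.924), Nckap1 (0.919) and D3ZY39_RAT (0.908), and for Nr0b2 Mrps16 (0.920), Apof (0.893) and F1MAP8_RAT (0.872). These are the highest of many correlations that share the same libraries and depths, and are given as a description.

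Genes around the pathway were read from 6 lists of 56 further genes, of which 45 could be tested. Of these 6 were called, 2 lower and 4 higher, beside 2.42% of all transcripts tested and 4.47% of those averaging 1 RPKM or more, with a median log2 fold change of 0.055. The lists were chosen with earlier results of these data known, so setting these shares side by side is no test of an excess. Of the further synthesis enzymes, 0 of 9 were called. Akr1d1, the 5-beta-reductase that bends the sterol ring, had 119 ± 20.5 RPKM in controls and 143 ± 9.86 in EtOH animals (SD, n = 6 each, log2 fold change 0.42, limma adjusted p = 0.119); without control animal 3, its lowest liver at 81.9, the log2 fold change was 0.29 and called (adjusted p = 0.0293). Acox2, the peroxisomal oxidase of the side chain, had a log2 fold change of 0.13 (limma, adjusted p = 0.388). Hsd3b7 and Slc27a2 were not found under those names and were not analysed here.

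Among 9 transporters of bile acids and bile lipids 1 was called, Abcc4, which encodes an efflux pump of the sinusoidal membrane. It ranged from 2.48 to 5.39 RPKM in controls and from 0.791 to 1.97 in EtOH animals, so every EtOH animal lay below every control. The means were 3.66 ± 1.05 and 1.14 ± 0.432 (SD, n = 6 each), and the log2 fold change was -1.32 ± 0.20 (SE, limma adjusted p = 0.0066). The call rested on 8 to 43 reads per liver and held with each liver left out. Abcc3, another sinusoidal efflux pump, ranged from 0.968 to 11.1 in controls and from 0.395 to 1.39 in EtOH animals (log2 fold change -1.84, limma adjusted p = 0.0788), with control animals 1 and 6 at the level of the EtOH group. Slc10a1, the sodium-dependent bile acid uptake carrier, had 312 ± 39.8 and 255 ± 22.9 RPKM (log2 fold change -0.20, limma adjusted p = 0.179). Of the 9 tested, 6 had a log2 fold change below 0 and 3 above. Those above were Abcb4 at 0.33, Slco1b2 (listed under an older name) at 0.25 and Atp8b1 at 0.15. None of these was called (limma, adjusted p = 0.0648, 0.401 and 0.649). Slc51a and Slc51b were listed at 0 in every liver under older names. Abcb11, Abcc2, Slco1a1 and Slco1a4 were not found by name and were not analysed here.

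Among 14 regulators of synthesis 2 were called, both higher by small amounts. Rxra, which encodes the partner receptor of FXR, ranged from 78.7 to 86.8 RPKM in controls and from 82.8 to 93.2 in EtOH animals (log2 fold change 0.245 ± 0.048 SE, limma adjusted p = 0.023). Nr1i2, which encodes the xenobiotic receptor PXR, ranged from 40.6 to 56.4 and from 45.9 to 65.3 (log2 fold change 0.34 ± 0.078 SE, limma adjusted p = 0.0443). Both calls were lost with voom on recovered reads and with no normalization between livers, where the log2 fold changes were 0.10 and 0.17 (adjusted p = 0.242 and 0.435). That of Nr1i2 was also lost with median-ratio scaling (adjusted p = 0.148) and with the pooled test on square-root values (adjusted p = 0.0737). Fgfr4 and Klb, the receptor and co-receptor through which the gut hormone FGF15 restrains Cyp7a1, had log2 fold changes of 0.090 and -0.25 (limma, adjusted p = 0.703 and 0.543). Hnf4a had 133 ± 16.7 and 120.0 ± 8.99 RPKM (log2 fold change 0.0051, limma adjusted p = 0.985). Fgf15 itself was listed at 0 in every liver. Nr5a2 was split over rows. Its main row was at 0 in control animals 1 and 3 and at 13.0 in EtOH animal 1, with a log2 fold change of 1.87 and an interval from 0.16 to 3.58 (limma, adjusted p = 0.271). The sum of its rows, the alternative added after the data were seen, was 10.7 ± 2.94 in controls and 13.4 ± 1.07 in EtOH animals (log2 fold change 0.48, limma adjusted p = 0.116).

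Of 5 FXR target genes tested, including Nr0b2, 0 were called, and their median log2 fold change was 0.16, with 4 above 0 and 1 below. Of the 8 on this list, 1 was not found by name and 2 were at 0 in every liver. The medians were 0.055 for the further synthesis enzymes, -0.20 for the transporters and 0.0595 for the regulators of synthesis. They were -0.52 for the LXR target genes and 0.57 for the diurnal and fasting regulators below. Of 7 LXR target genes tested, including Cyp7a1, 1 was called. That was Srebf1, which encodes a regulator of lipid synthesis and is no bile acid gene, at 76.2 ± 12.1 and 31.3 ± 14.5 RPKM (SD, n = 6 each, log2 fold change -1.22, limma adjusted p = 0.0301), and the pooled test on square-root values did not call it (adjusted p = 0.051). Abcg5, a sterol exporter of the canalicular membrane, had a log2 fold change of -1.26 that was not called (limma, adjusted p = 0.119), on 2 to 38 reads per liver. Abca1 was not analysed here.

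Cyp7a1 also has a strong daily rhythm in rats, and 6 diurnal and fasting regulators of Cyp7a1 and Cyp8b1 were tested. Of these 2 were called, both higher. Nr1d1, the clock repressor REV-ERB alpha, ranged from 4.04 to 23.3 RPKM in controls and from 20.5 to 49.6 in EtOH animals (log2 fold change 1.51 ± 0.33 SE, limma adjusted p = 0.0358). Tef, a transcription factor of the clock output, ranged from 4.27 to 6.35 and from 6.28 to 13.5 (log2 fold change 0.76 ± 0.15 SE, limma adjusted p = 0.023). Dbp, a related factor that binds the Cyp7a1 promoter, ranged from 1.06 to 6.33 and from 2.85 to 26.1 (log2 fold change 1.69, limma adjusted p = 0.0833). The pooled test on square roots called neither Nr1d1 nor Tef (adjusted p = 0.0606 and 0.0522). Their part in the level of Cyp7a1 was not tested.

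The calls of the wider lists depended on single livers to unequal degrees. Those of Nr1i2, Srebf1 and Nr1d1 were lost in 10, 8 and 8 of the 12 fits without a liver, that of Rxra in 4, that of Tef in 1 and that of Abcc4 in 0. The number of calls in the lists was 6 with all livers. It was 3 without control animal 2, 1 without EtOH animal 2, 3 without EtOH animal 3, 2 without EtOH animal 4 and 3 without EtOH animal 6.

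**Figure D4:**
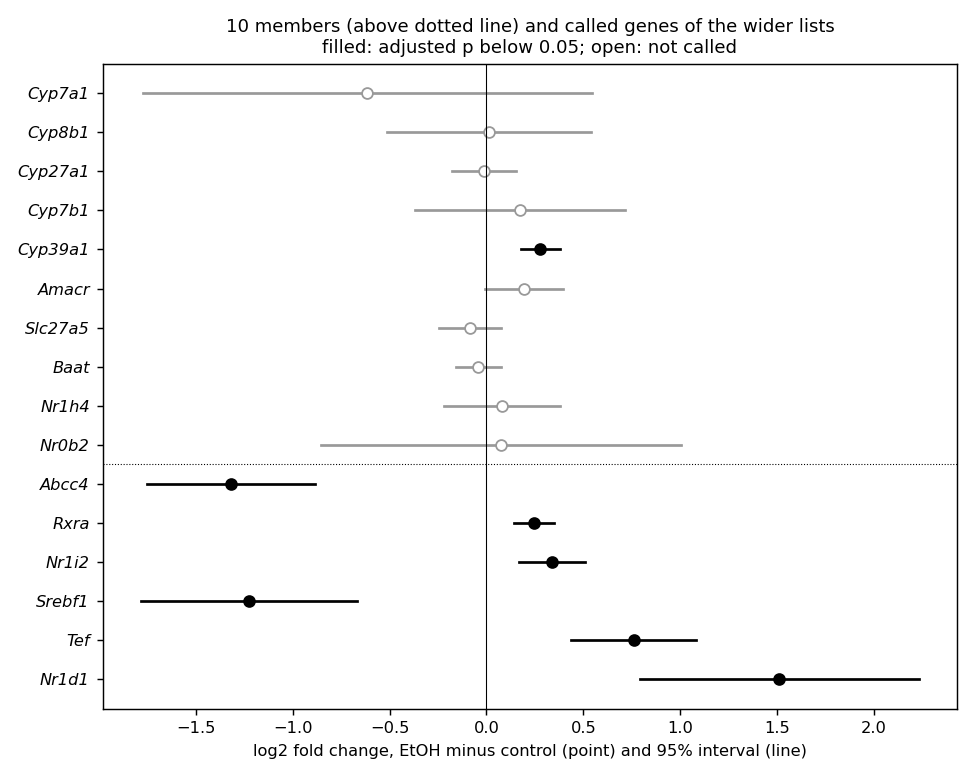
Log2 fold change, EtOH minus control (points), with its 95% interval (lines) for the 10 genes above the dotted line and for the 6 called genes of the wider lists below it, filled where the adjusted p is below 0.05. Intervals of the 10 are widest for Cyp7a1 and Nr0b2 and narrowest for Cyp39a1 and Baat, and that of Abcc4 runs from -1.75 to -0.88.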

How the data were processed

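RPKM per transcript and liver were made by the authors in CLCbio Genomics Workbench 4.9 and deposited with their own fold changes and p-values, which were not used here. No genome build is named in the sources read. Whole reads were recovered from the ratios of the RPKM values, as the smallest whole numbers within 0.01 of a read. Of the 21718 transcripts above 0, 2052 were so in a single liver, where no ratio exists, and were set to 1 read. All 21718 transcripts were compared as log2(RPKM + 0.5), quantile normalized over 12 livers, with limma 3.58.1 in R 4.3.3 (mean-variance trend, 6 EtOH against 6 control animals). Ratios and correlations used scipy 1.17.1, with 100000 resamples or exact enumeration. Tested on simulated data over 20859 transcripts, the procedure called 65.9% of those raised 2-fold, 96% of those raised 4-fold, and 55.9% and 89.4% of those lowered to 0.5 and 0.25 of their level. The simulation gave every transcript the same spread beyond counting noise, and changed only transcripts averaging 1 RPKM or more. These shares were therefore not measured at the wider spread of Cyp7a1 and Nr0b2, or at the low level of Cyp7b1.

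The 10 genes and the lists were chosen with earlier results of these data known. All 10 are named, as are every called gene of the lists and Abcb11, Slc10a1, Hsd3b7, Akr1d1, Acox2, Fgfr4, Klb, Nr5a2 and Hnf4a. Abcc3, Abcb4, Slco1b2, Atp8b1, Abcg5 and Dbp were named after their values were seen, and the motif was chosen after the promoters were read. Alternatives were pseudocounts of 0.1 and 1, minimum mean RPKM of 0.1 and 1, 2 other scalings, a pooled test on square roots, voom, an animal block, leaving out each liver and, chosen after the data were seen, summing the rows of a gene and ratios of quantile-normalized values. The labels name no batch, and the libraries shared a lane.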

Additional observations from a re-analysis of the deposited data

Results flagged for a closer look

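In 52 groups of 6 livers, 1 liver stood apart from the other 5 by a gap above Dixon's critical value of 0.625 of the range in 4 groups. For independent, normally distributed values chance gives about 1 in 20 such groups. Here gene levels were taken as RPKM, not as logs, and the groups share the same livers, so that rate is only a rough guide. Nr0b2 was at 21.66 RPKM in EtOH animal 5, against 5.944 to 11.53 in the others of its group. Slc27a5 was at 446.0 RPKM in control animal 3, against 286.4 to 345.4 in the other controls. Tef was at 13.49 RPKM in EtOH animal 6, against 6.281 to 8.936. The log2 ratio of Cyp7a1 to Cyp7b1 was 3.53 in control animal 6, against 6.09 to 7.37.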

How the results depend on the processing

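Of the members, Cyp39a1 was called under every setting that kept quantile normalization without the animal block, and none of the other 9 was called under any setting. The number of members called was 0 with no normalization, median-ratio scaling, voom and the block, and 1 with each liver left out. Over all transcripts 526 were called, against 322 with the pooled test on square roots, 860 at a minimum mean RPKM of 1, 977 with rows summed and 212 to 656 with a liver left out. The lowest counts were 275 and 285 without control animals 2 and 4, and 212, 252, 295 and 298 without EtOH animals 2 to 5. The wider lists held 2 calls with square roots and 1 to 7 with a liver left out. Cyp7b1 is below the filter of a mean RPKM of at least 1 and has no value there.

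For transcripts averaging 1 RPKM or more the median log2 fold change was 0.0078 in the main fit and -0.082 with no normalization between livers. Log2 fold changes near 0 turned sign, and the cause was not tested. With no normalization they were -0.0932 for Cyp8b1, -0.0625 for Nr0b2, -0.0527 for Nr1h4, -0.0373 for Fgfr4 and -0.14 for Hnf4a. With median-ratio scaling they were -0.0011 for Cyp8b1 and -0.0516 for Hnf4a, and with voom -0.0101 for Nr0b2 and -0.0524 for Hnf4a. Leaving out a liver gave -0.088 to 0.25 for Cyp8b1, -0.0489 to 0.0294 for Cyp27a1, -0.25 to 0.29 for Nr0b2, -0.0238 to 0.18 for Nr1h4 and -0.0511 to 0.0715 for Hnf4a. The log2 ratio of Nr0b2 to Nr1h4 differed by 0.0007 with a pseudocount of 0.1 and by -0.32 to 0.26 with a liver left out, that of Cyp7a1 to Cyp7b1 by -1.52 to -0.69 and that of Cyp8b1 to Cyp7a1 by 0.39 to 1.03.

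Animals with the same number did not deviate together across transcripts averaging 1 RPKM or more (r from -0.067 to 0.032 over the 6 numbers, none above 0.1). The numbers thus gave no sign of pairing the livers, though a pairing that touches few transcripts would not show in this check. With the number as a block 113 transcripts were called, 0 of them members and 0 in the wider lists. For Cyp39a1 the adjusted p was 0.088 (limma); in this balanced design the block cannot move a fold change.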
